A study of Mus musculus with 24 samples.

Results

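The genes that write, copy, erase and read methylation of DNA were followed through the development of the mouse retina. The members are taken by gene symbol, and the set was proposed with earlier results of these data known. It holds the DNA methyltransferases Dnmt1, Dnmt3a and Dnmt3b, the maintenance factor Uhrf1, the dioxygenases Tet1, Tet2 and Tet3, and the methyl-CpG-binding protein Mbd2. In the deposited annotation (GRCm38) they lie at chr9:20907206-20959888 (Dnmt1, minus strand), chr12:3806007-3914443 (Dnmt3a, plus strand), chr2:153649450-153687730 (Dnmt3b, plus strand) and chr17:56303321-56323486 (Uhrf1, plus strand). The others lie at chr10:62804570-62899118 (Tet1, minus strand), chr3:133463679-133545139 (Tet2, minus strand), chr6:83362373-83459084 (Tet3, minus strand) and chr18:70568189-70626131 (Mbd2, plus strand). All 8 lie on an autosome, each has 1 row among the 45594 genes of the deposited gene table, and all 8 were among the 21858 genes with enough counts to be tested. Bulk polyadenylated RNA was sequenced from retinas of strain C57/Bl6N at 12 ages, namely 4 embryonic ages (E11, E12, E14 and E16) and 8 postnatal ones, which are P0, P2, P4 and P6 in the first week and P10, P14, P21 and finally P28. Each age has 2 libraries, 24 in all, with an RNA input of 100 ng for E11 and E12 and 1 µg for all later ages. No genotype or treatment other than the strain is named, so the ages are the only groups. The labels do not say whether the 2 libraries of an age came from separate animals, litters or pools, so every p-value below reflects only how these particular samples vary.

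In mammals, Dnmt3a and Dnmt3b place methyl groups on unmethylated CpG sites, and Dnmt1 copies the pattern onto the new strand after DNA replication. Uhrf1 binds the hemimethylated DNA behind the replication fork and brings Dnmt1 to it, so copying is tied to cells that divide. The Tet enzymes oxidise methylcytosine, a first step of its removal, and Mbd2 binds methylated CpG sites and belongs to a form of the NuRD repressor complex. The retina starts as dividing progenitors, and its neurons, most of them rods in the mouse, leave the cell cycle before and shortly after birth. In bulk RNA, fewer cells of a type and less RNA per cell cannot be told apart.

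Library totals ran from 24567532 to 35898879 counts, and the summed level of 5 rod markers was 47014 and 51512 CPM (counts scaled to library size) at P28, against 3.19 and 3.53 CPM at E11. The summed level of 6 progenitor markers was 1009 and 1003 CPM at P4, against 1853 and 1661 CPM at P2, and 667 and 614 CPM at P28. Levels below are CPM scaled by the TMM method unless a per-length level is named. Per-length levels are scaled to the same total in every library without TMM, so their changes between ages can differ from those in CPM. That of a gene sums all its annotated transcripts, coding or not, so short noncoding ones add to it. Lens genes marked some early libraries. Their sum over 11 genes was 3429 CPM in E11 replicate 1 and 32.3 CPM in E11 replicate 2, 3322 CPM in E12 replicate 2 and 248 CPM in E12 replicate 1, and 2613 CPM in E14 replicate 2 and 71.7 CPM in E14 replicate 1. It was at most 136 CPM in any library from E16 on, with up to 3 of the 11 genes at 0. A sum of 8 red cell genes was 305 and 480 CPM at E16, against 3293 and 7699 CPM at E11, and a sum of 8 mesenchyme genes was 12.3 and 10.7 CPM at E16, against 212 and 165 CPM at E11. The part of these tissues in the changes between E11 and E16 was not tested beyond leaving out single libraries.

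Across the 12 ages 7 of the 8 genes changed, which was read against 77.3% of all genes tested. A gene was called changed over all ages where the Benjamini-Hochberg adjusted p of edgeR's quasi-likelihood test was under 0.05 and its fitted stage means spanned at least 2-fold. The span on the log2 scale was 9.99 for Uhrf1, 4.63 for Dnmt3b, 2.38 for Dnmt1, 1.85 for Tet2, 1.65 for Tet1, 1.45 for Dnmt3a and 1.41 for Tet3. Mbd2 spanned 0.79 and was not called, although its adjusted p was 0.000306. The plot of all libraries by age shows 3 shapes: Uhrf1, Dnmt1 and Dnmt3b were highest at E11 to E14, Tet2, Tet3 and Mbd2 had their highest stage mean at P14 or later, and Tet1 and Dnmt3a had theirs at P14, with Dnmt3a at 85.7% to 91.7% of that mean at E11 to E14.

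**Figure D1:**
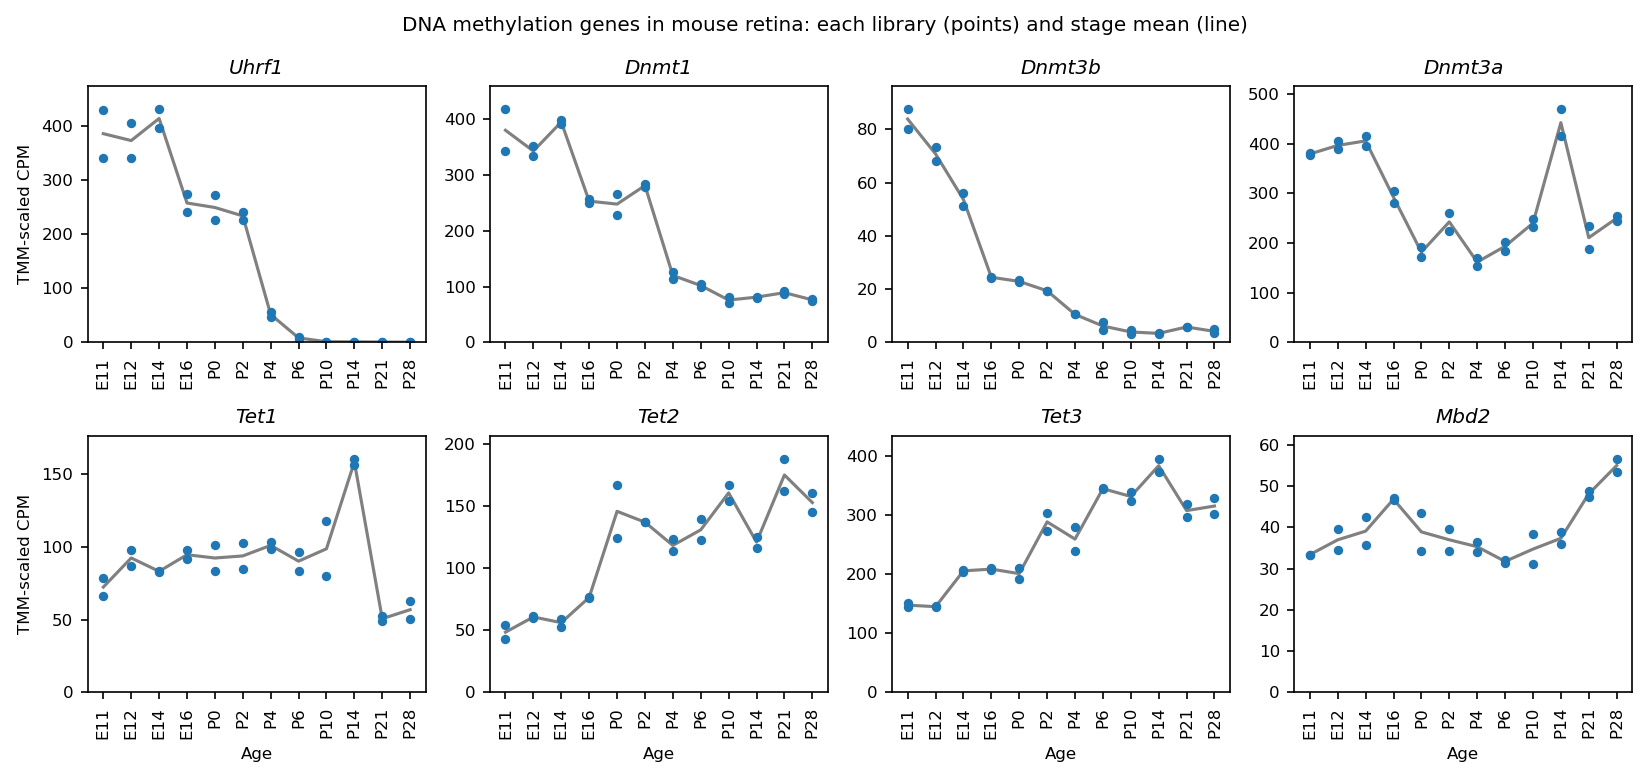
TMM-scaled CPM (linear y axis from 0) of each of the 8 genes by age, with 1 point per library and a line through the mean of the 2 libraries. Uhrf1 ends at 0.40 CPM at P28, Dnmt1 at 76.1 CPM, Tet1 has its highest mean, 159 CPM, at P14, and Dnmt3a has 442 CPM at P14 and 406 CPM at E14.

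Uhrf1 and Dnmt1, the pair that copies methylation at replication, are described first, with a stretch of DNA at a transcription start of each. Both fell after P2, as the cell cycle genes did, and a link of the fall to this DNA was not tested. Each window covers 250 bases before to 50 bases after a start annotated by RefSeq (GRCm38.p6), read 5' to 3' on the gene's strand. Capitals mark the 8-base words TTTCCCGC, TTTCGCGC, TTTGCCGC and TTTGGCGC on either strand, which are forms of the consensus bound by E2F factors, the regulators of S-phase genes. Of 32851 such windows in the table, 744 (2.26%) hold at least 1 of these words. The Dnmt1 window (chr9:20952574-20952873, minus strand) holds 2 of them, at -219 and 34 from the start, and the Uhrf1 window (chr17:56304063-56304362, plus strand) holds 1, at -185. The match is of letters only, and no binding was measured.
Dnmt1: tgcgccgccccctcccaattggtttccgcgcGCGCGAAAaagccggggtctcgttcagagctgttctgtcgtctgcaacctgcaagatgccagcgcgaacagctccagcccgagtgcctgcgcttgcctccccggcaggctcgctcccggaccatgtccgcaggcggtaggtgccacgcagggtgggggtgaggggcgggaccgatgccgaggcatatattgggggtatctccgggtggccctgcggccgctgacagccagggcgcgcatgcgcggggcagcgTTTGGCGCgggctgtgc
Uhrf1: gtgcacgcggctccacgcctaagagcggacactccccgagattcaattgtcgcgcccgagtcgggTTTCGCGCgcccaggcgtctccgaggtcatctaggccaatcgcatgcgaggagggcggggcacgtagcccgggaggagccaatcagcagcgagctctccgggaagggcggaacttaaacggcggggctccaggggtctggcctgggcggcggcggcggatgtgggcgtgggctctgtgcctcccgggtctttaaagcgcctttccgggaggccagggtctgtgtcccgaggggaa

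Both windows hold 33 CpG sites, against a median of 7 over all windows. Each of the words contains a CpG, so the share over all windows is not matched to windows as rich in CpG as these. The Uhrf1 window includes the annotated starts of Uhrf1-003 and Uhrf1-004, and Uhrf1-004 held 61.0% ± 3.60 of the gene's transcript counts in the 8 libraries of E11 to E16 (SD). The Dnmt1 window is that of Dnmt1-203, a transcript of 1501 codons with 2.05% ± 0.79 of Dnmt1 counts in the same libraries. The windows at the starts of Dnmt1-202 and Dnmt1-201 hold 2 and 12 CpG sites and none of the words. A second Uhrf1 window, at the start of Uhrf1-001, holds 12 CpG sites and none of the words. Uhrf1-002, with 27.9% ± 6.18 of Uhrf1 counts in the embryonic libraries, starts in neither Uhrf1 window. Among the 12 windows of 7 of the genes, the words were present only in the 2 shown above.

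Uhrf1 was nearly lost from the retina between P2 and P10. It stood at 341 and 430 CPM at E11, 405 and 341 CPM at E12, 431 and 397 CPM at E14, 241 and 274 CPM at E16, 272 and 227 CPM at P0, and 241 and 227 CPM at P2. It then stood at 55.4 and 47.7 CPM at P4, 6.90 and 9.58 CPM at P6, 1.35 and 1.09 CPM at P10, 0.71 and 1.19 CPM at P14, 0.76 and 0.47 CPM at P21, and 0.60 and 0.20 CPM at P28. From P4 to P10 both libraries of each age lay below both of the age before. At P28 the level rests on 21.02 and 6.97 estimated counts. The last step that passed both thresholds was P10 vs P6.

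The fall of Uhrf1 passed the test in 3 successive steps. By edgeR's quasi-likelihood test with Benjamini-Hochberg adjustment, it was -2.18 on the log2 scale (SE 0.20, adjusted p = 8.58e-07) for P4 vs P2, -2.64 (SE 0.21, adjusted p = 2.97e-07) for P6 vs P4 and -2.76 (SE 0.27, adjusted p = 1.47e-06) for P10 vs P6. Over the longer window, Uhrf1 was 31.2-fold lower at P6 than at E16 and 20.2-fold lower at P28 than at P6. The log2 change of Uhrf1 P28 vs P6 was -4.34, and it was -5.32 without P28 replicate 1 and -3.77 without P28 replicate 2.

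Dnmt1 fell at the same age but kept a larger part of its level, and the progenitor marker sum was also lower at P4 than at P2, whose part in both falls was not tested. It stood at 342 and 418 CPM at E11, 352 and 334 CPM at E12, 392 and 398 CPM at E14, 249 and 257 CPM at E16, 266 and 229 CPM at P0, and 279 and 283 CPM at P2. From P4 the levels were 114 and 126 CPM at P4, 99.5 and 104 CPM at P6, 81.0 and 70.7 CPM at P10, 81.8 and 80.3 CPM at P14, 86.6 and 91.6 CPM at P21, and 78.2 and 74.1 CPM at P28. No library from P4 on reached any earlier one. Dnmt1 fell in P4 vs P2 by 1.23 on the log2 scale (SE 0.10, quasi-likelihood adjusted p = 2.90e-07), the only step in which it passed both thresholds. The log2 difference of P28 vs P6 was -0.42 (SE 0.10), below the 2-fold threshold.

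Set beside a list of 30 cell cycle genes, the 2 maintenance genes lay on opposite sides of its median from P4 on. At E16 the mean of Uhrf1 was 62.2% and that of Dnmt1 64.1% of the gene's own highest stage, against a list median of 59.2%. At P6 the values were 1.99% for Uhrf1, 25.8% for Dnmt1 and 6.58% for the list. At P28 they were 0.097% for Uhrf1, 19.3% for Dnmt1 and 1.64% for the list, whose single genes ran from 0.0065% to 21.5%. Both genes lay within the range of single cell cycle genes at P28, while Uhrf1 lay below all 30 at P6, where the lowest was at 2.52%, and at P10, where Uhrf1 was at 0.29% and the lowest at 0.39%. Dnmt3b was at 4.93% of its peak at P28.

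**Figure D2:**
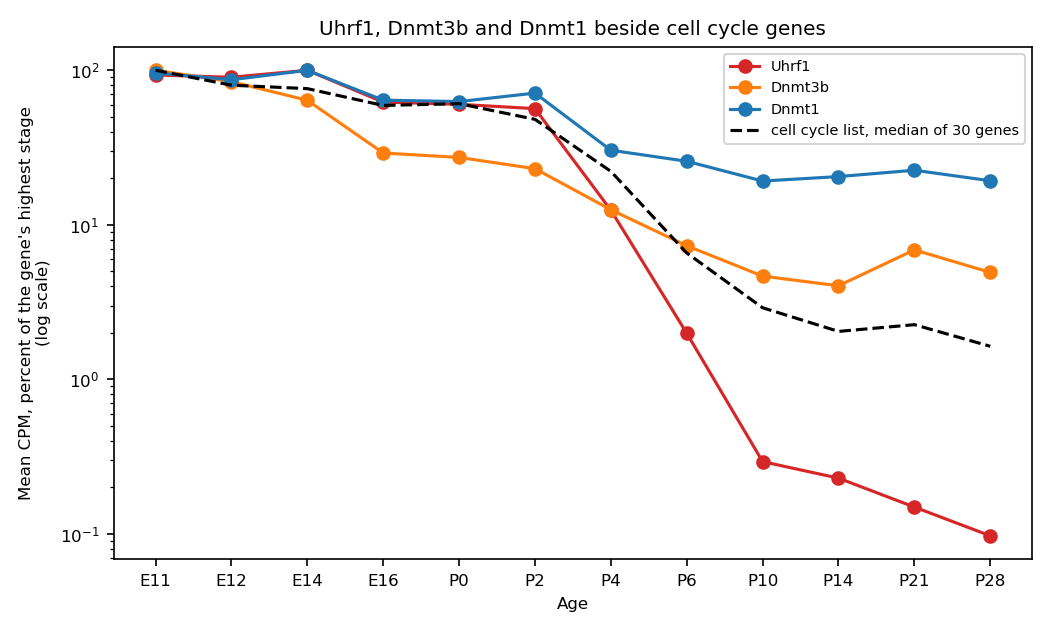
Mean CPM of Uhrf1, Dnmt3b and Dnmt1 by age as a percent of each gene's highest stage mean (log y axis), with the median of 30 cell cycle genes as a dashed line. At P28 Dnmt1 is at 19.3%, Dnmt3b at 4.93%, the cell cycle median at 1.64% and Uhrf1 at 0.097%.

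Per base of transcript, the ratio of Dnmt1 to Uhrf1 was 0.51 ± 0.027 at E11, 0.68 ± 0.042 at P2, 1.39 ± 0.18 at P4, 7.10 ± 1.11 at P6 and 30.1 ± 2.02 at P10 (SD, n = 2 each). Its stage mean first exceeded 1 at P4. At P28 it was 116 ± 78.8, where Uhrf1 had 21.02 and 6.97 estimated counts.

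Dnmt1 transcripts differed in share between the mature and the embryonic libraries. Dnmt1-201, of 1620 codons, held 35.2% ± 9.60 of Dnmt1 transcript counts in the 6 libraries of P14, P21 and P28, against 17.5% ± 2.40 in the 8 libraries of E11 to E16 (SD). Dnmt1-202, of 1501 codons, held 62.0% ± 9.46 in the mature libraries, against 80.5% ± 2.87 in the embryonic ones. The log2 change of usage, each transcript against its gene as a whole, was 0.98 for Dnmt1-201 (adjusted p = 7.19e-07) and -0.38 for Dnmt1-202 (adjusted p = 0.0478, edgeR's diffSpliceDGE). The 2 transcripts share 5092 exonic bases, with 275 found in Dnmt1-201 alone and 156 in Dnmt1-202 alone, so the split between them is uncertain. The shares at P10, after the fall of the gene, were 17.4% ± 2.38 for Dnmt1-201 and 80.03% ± 2.33 for Dnmt1-202, and Dnmt1-201 held 30.2% ± 11.8 at P14, 30.4% ± 2.36 at P21 and 44.9% ± 5.67 at P28 (SD, n = 2 each).

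The de novo enzymes went separate ways. Dnmt3b fell between E11 and E16 and again between E16 and P6, while the lowest Dnmt3a library still had 153 CPM. Dnmt3b stood at 80.2 and 87.5 CPM at E11, 73.5 and 68.0 CPM at E12, 51.2 and 56.0 CPM at E14, 24.2 and 24.6 CPM at E16, 22.5 and 23.3 CPM at P0, and 19.4 and 19.3 CPM at P2. Later it stood at 10.5 and 10.5 CPM at P4, 4.70 and 7.58 CPM at P6, 4.65 and 3.16 CPM at P10, 3.54 and 3.23 CPM at P14, 5.72 and 5.83 CPM at P21, and 3.39 and 4.87 CPM at P28. At each step up to P10 both libraries lay below both of the age before, and after P10 that order did not continue.

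Dnmt3b was 3.43-fold lower at E16 than at E11 (log2 change -1.78, SE 0.18, adjusted p = 3.95e-07, edgeR's quasi-likelihood test), and within that span the step E16 vs E14 was called (log2 change -1.13, SE 0.18). With E11 replicate 1, the library rich in lens RNA, left out, the change of Dnmt3b E16 vs E11 was -1.84, and with E11 replicate 2 left out it was -1.71. Dnmt3b was a further 3.97-fold lower at P6 than at E16. Of its 12 annotated transcripts, 9 were tested and 1 was called for usage, Dnmt3b-201, at 3.46% ± 8.46 of the gene's counts in mature libraries against 10.8% ± 4.47 in embryonic ones. Dnmt3b-006, of 776 codons, held the largest embryonic share, 56.6% ± 11.0, and had 37.5% ± 24.2 in the mature libraries, in which the whole gene stood between 3.23 and 5.83 CPM.

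Dnmt3a has several starts in the annotation, and the transcripts of a far and an internal one are compared below. A window at each is shown with CpG sites in capitals. A further far window (chr12:3806730-3807029, plus strand), with 46 CpG sites, is not shown. The far window (chr12:3806910-3807209, plus strand) is that of Dnmt3a-006 and holds 47 CpG sites, more than 98.6% of windows, and it also holds the start of Dnmt3a-001. Both transcripts encode the long form of 908 codons. The internal window (chr12:3891494-3891793, plus strand) is that of Dnmt3a-005 and Dnmt3a-201, which encode a short form of 689 codons, and holds 18 CpG sites. The short form is known in mice as Dnmt3a2 and lacks the amino-terminal end of the long form.
Dnmt3a, far start: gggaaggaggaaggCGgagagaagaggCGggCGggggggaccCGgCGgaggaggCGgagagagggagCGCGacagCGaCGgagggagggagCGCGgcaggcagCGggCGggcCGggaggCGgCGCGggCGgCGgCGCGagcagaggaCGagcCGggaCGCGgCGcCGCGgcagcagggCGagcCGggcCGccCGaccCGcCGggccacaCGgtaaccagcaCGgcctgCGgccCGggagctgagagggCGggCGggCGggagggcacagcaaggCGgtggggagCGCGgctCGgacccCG
Dnmt3a, internal start: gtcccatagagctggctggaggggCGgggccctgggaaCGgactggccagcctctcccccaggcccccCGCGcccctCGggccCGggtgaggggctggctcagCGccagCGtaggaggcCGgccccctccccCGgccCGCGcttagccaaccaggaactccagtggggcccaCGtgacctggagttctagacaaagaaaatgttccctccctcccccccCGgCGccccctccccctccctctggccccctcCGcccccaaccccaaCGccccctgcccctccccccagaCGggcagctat

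By the transcript estimates, the long form made up more of the 2 forms together at late ages. The forms also differ at their ends, with 6696 and 5744 untranslated bases after the stop codon in Dnmt3a-001 and Dnmt3a-006. Dnmt3a-201 and Dnmt3a-005 have 3207 and 95 such bases. The part of the starts and of these ends in the split was not tested. Per base of transcript, scaled to the same total in every library, the long form stood at 27.1 and 18.9 at E11, 36.6 and 29.5 at E16, 45.0 and 43.5 at P6, 137 and 123 at P14, and 61.8 and 59.4 at P28. On the same scale the short form stood at 21.7 and 24.9 at E11, 18.02 and 16.5 at E16, 20.6 and 19.5 at P6, 29.1 and 34.7 at P14, and 14.4 and 12.9 at P28. The forms overlapped at E11, and from E12 on the long form lay above the short one within each age. The short form made up 50.7% ± 8.79 of both at E11, 34.5% ± 2.07 at E16, 31.2% ± 0.32 at P6, 34.8% ± 9.47 at P10, 19.8% ± 3.15 at P14 and 18.3% ± 0.73 at P28 (SD, n = 2 each). These 2 forms are not all of Dnmt3a. Per base, the means of the long and short forms were 23.0 and 23.3 at E11, where the whole gene stood at 94.7. At P14 they were 130 and 31.9, where the whole gene stood at 193. The rest fell on other annotated transcripts, many of them short.

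The 2 main long-form transcripts traded shares. Dnmt3a-001 held 64.8% ± 6.19 of Dnmt3a counts in mature libraries and 29.7% ± 2.85 in embryonic ones (log2 change of usage 1.12, adjusted p = 1.25e-05, diffSpliceDGE). Dnmt3a-006 held 20.03% ± 4.57 in mature libraries and 42.2% ± 2.95 in embryonic ones (log2 change of usage -1.11, adjusted p = 9.67e-05). These long transcripts share 8642 exonic bases and differ mainly by 1043 bases of Dnmt3a-001 alone, so their split is uncertain. The split of the forms is uncertain too, because Dnmt3a-201 has only 117 bases that Dnmt3a-001 lacks. In P10 replicate 2 Dnmt3a-006 was estimated at 0.031%, against 17.4% in P10 replicate 1.

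Of the short-form transcripts, Dnmt3a-005 was estimated above 0 only up to P2. It held 10.7% and 19.2% of Dnmt3a counts at E11, 6.37% and 6.56% at E12, 9.46% and 10.9% at E14, 1.86% and 3.12% at E16, 6.63% and 1.61% at P0, and 2.80% and 0.53% at P2. In all 12 libraries from P4 on its estimated count was 0, which allows a share of up to 0.0551% by a floor of 3 counts, for counting error alone. Dnmt3a-201, from the same start, held 13.3% ± 2.75 in mature libraries and 12.23% ± 3.82 in embryonic ones and was not called (adjusted p = 0.901). The transcripts share 2256 bases, and only 72 bases are found in Dnmt3a-005 alone. Dnmt3a-013, Dnmt3a-014, Dnmt3a-015 and Dnmt3a-016, short transcripts of 369 to 550 bases, belong to neither form and were also called by diffSpliceDGE. Their log2 changes of usage were -4.60, -3.38, -4.25 and -4.58, and each held under 10% of counts at every age.

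**Figure D3:**
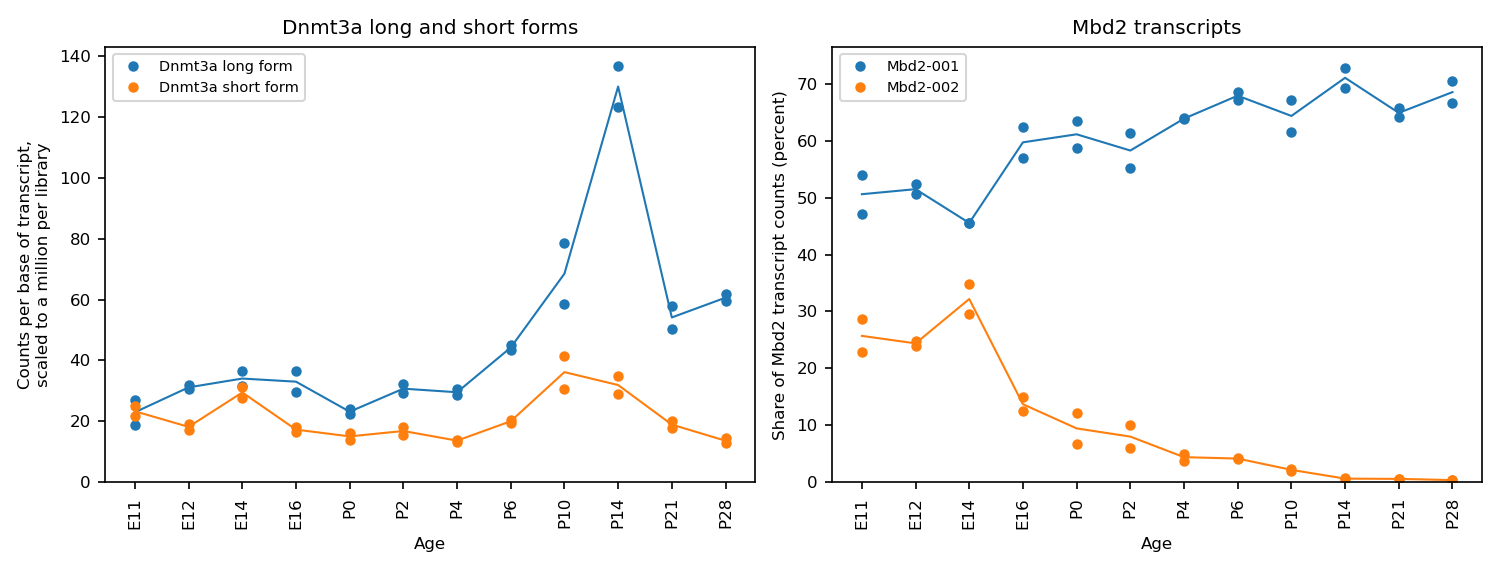
Left, per-length level (counts per base, scaled to the same total in every library) of the Dnmt3a long form of 908 codons and short form of 689 codons by age. Right, share of Mbd2 transcript counts (percent) held by Mbd2-001 and Mbd2-002 by age. Points are libraries and lines join means of 2. The long Dnmt3a form reaches 137 and 123 at P14, and Mbd2-002 is at most 0.71% from P14 on, against 22.8% and 28.6% at E11.

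The level of Dnmt3a as a whole depends on how its transcripts are added. In the deposited gene table it stood at 382 and 376 CPM at E11, 388 and 404 CPM at E12, 395 and 416 CPM at E14, 280 and 305 CPM at E16, 171 and 192 CPM at P0, and 225 and 261 CPM at P2. From P4 it stood at 170 and 153 CPM at P4, 203 and 184 CPM at P6, 249 and 231 CPM at P10, 469 and 415 CPM at P14, 188 and 233 CPM at P21, and 255 and 244 CPM at P28. The embryonic libraries lay above all postnatal ones except those of P14.

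For Dnmt3a the gene value was 1.91 times the plain sum of its transcript counts at E11, 1.43 times at E16, 0.72 times at P6 and 0.74 times at P28. The log2 difference of E16 vs E11 was -0.38 (SE 0.11) in the gene table and 0.049 (SE 0.096) with summed transcript counts, and that of P6 vs E16 was -0.60 (SE 0.11) in the gene table and 0.39 (SE 0.096) with summed counts. None of these reached 2-fold, and their sign turns with the table used. For the other 7 genes the stage mean of the ratio stayed between 0.70 and 1.42. Per base of transcript, Dnmt3a stood at 94.7 ± 7.21 at E11, 96.2 ± 0.36 at E16, 77.4 ± 3.12 at P6, 193 ± 15.8 at P14 and 101 ± 4.18 at P28 (SD, n = 2 each).

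Dnmt3a and Tet1 both had their highest stage mean at P14 and fell after it, though the Dnmt3a libraries of P14 (469 and 415 CPM) and E14 (395 and 416 CPM) overlapped. Tet1 stood at 78.6 and 66.2 CPM at E11, 98.2 and 86.7 CPM at E12, 83.6 and 82.8 CPM at E14, 91.6 and 97.7 CPM at E16, 83.3 and 101 CPM at P0, and 103 and 85.1 CPM at P2. It then stood at 104 and 98.5 CPM at P4, 83.7 and 96.8 CPM at P6, 118 and 79.8 CPM at P10, 160 and 157 CPM at P14, 49.0 and 52.2 CPM at P21, and 63.0 and 50.6 CPM at P28. Both P14 libraries lay above all others, and the 4 libraries of P21 and P28 lay below all others.

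By edgeR's quasi-likelihood test, 2 of the 8 genes fell in P21 vs P14, read against 5.07% of all genes lower in that step. The log2 change was -1.65 (SE 0.16, adjusted p = 2.19e-06) for Tet1 and -1.07 (SE 0.11, adjusted p = 2.82e-06) for Dnmt3a. Marker sums of retinal cell types and of other tissues also differed in the same step, and their part was not tested. The sum of 5 rod genes was 74328 and 67047 CPM at P21, against 24380 and 24226 CPM at P14. That of 4 cone genes was 1881 and 1687 CPM, against 903 and 1006 CPM, and the Muller glia sum was also higher. Sums of ganglion, bipolar, amacrine and horizontal cell genes were lower. The ganglion sum (5 genes) was 234 and 255 CPM, against 384 and 418 CPM. Sums of some other tissues were lower too. The sum of 6 endothelium genes was 170 and 182 CPM at P21, against 384 and 394 CPM at P14, that of 8 microglia genes 24.3 and 29.4 CPM, against 53.7 and 54.5 CPM, and that of 8 pigment epithelium genes 27.9 and 44.7 CPM, against 136 and 113 CPM. Without P14 replicate 1 the Dnmt3a change was -0.98 and without P21 replicate 1 it was -0.93, both short of 2-fold. In P14 vs P10 the log2 difference was 0.88 (SE 0.11) for Dnmt3a and 0.68 (SE 0.16) for Tet1, neither of them 2-fold. The same shape was present with summed transcript counts, where P21 vs P14 was -1.13 for Dnmt3a and -1.54 for Tet1.

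Genes with long transcripts moved the same way at P14. The 597 genes with a mean transcript length over 8 kb had a median log2 change of 0.35 in P14 vs P10 and -0.29 in P21 vs P14, and the 4186 genes under 1 kb had medians of -0.12 and 0.05. In P14 vs P10, 13.1% of the long genes were called higher, against 1.65% of the short ones, and in P21 vs P14 12% of the long genes were called lower, against 3.66% of the short ones. Dnmt3a and Tet1 have mean transcript lengths of 8278 and 13750 bases, and the part of length in their peaks was not tested. Tet3, at 10790 bases, had log2 differences of 0.21 (SE 0.087) in P14 vs P10 and -0.32 (SE 0.086) in P21 vs P14, beside medians of 0.35 and -0.29 for its length class.

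**Figure D4:**
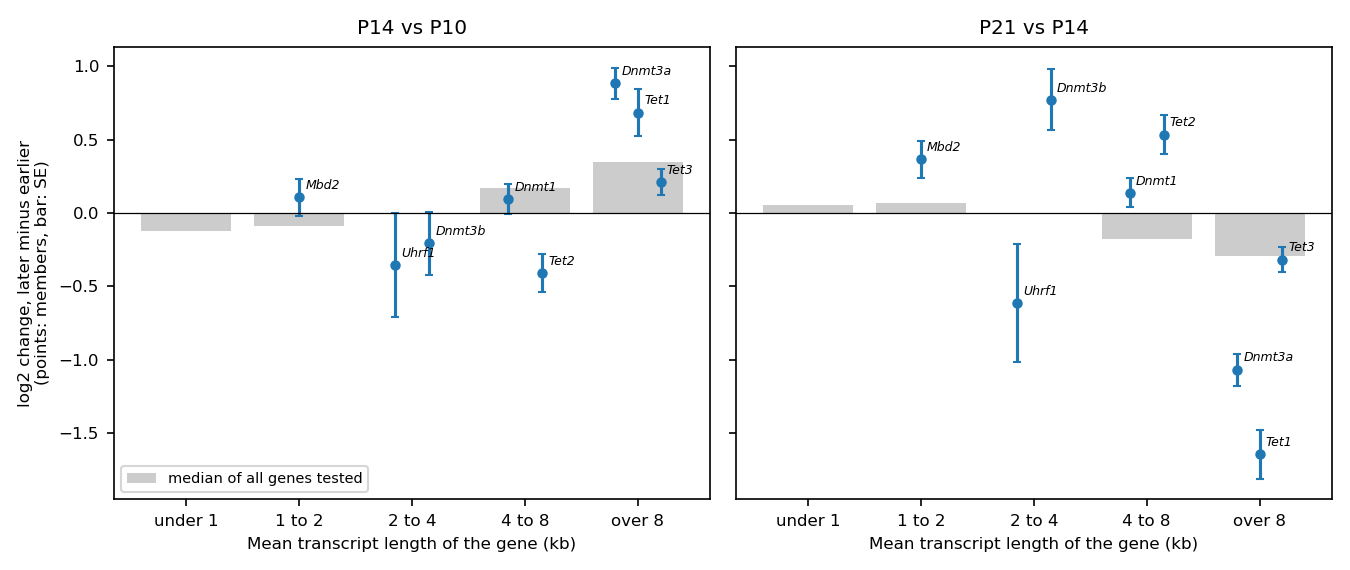
Log2 change (later minus earlier age) in P14 vs P10, left, and P21 vs P14, right, by the mean transcript length of the gene in kb. Grey bars are medians of all genes tested in each length class, with 597 genes over 8 kb, and points with SE bars are the 8 genes of the set. Dnmt3a and Tet1 lie beyond the bar of their class in both steps (0.88 and 0.68 against 0.35, and -1.07 and -1.65 against -0.29).

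Tet2 and Tet3 stood higher in the postnatal retina than at E11 and E12. Tet2 stood at 53.9 and 42.8 CPM at E11, 61.5 and 59.6 CPM at E12, 59.1 and 52.9 CPM at E14, 76.6 and 76.0 CPM at E16, 167 and 124 CPM at P0, and 137 and 137 CPM at P2. It then stood at 123 and 113 CPM at P4, 139 and 122 CPM at P6, 167 and 154 CPM at P10, 125 and 116 CPM at P14, 162 and 188 CPM at P21, and 160 and 145 CPM at P28. No postnatal library overlapped an embryonic one. The difference of P0 vs E16 was 0.93 on the log2 scale (SE 0.13, adjusted p = 0.000107, edgeR's quasi-likelihood test), just short of 2-fold. It was 1.13 without P0 replicate 2 and 0.70 without P0 replicate 1. By the transcript estimates, the coding Tet2-001 overlapped between these ages, with 52.9 and 47.8 CPM at E16 and 56.4 and 51.9 CPM at P0. Tet2-005 and Tet2-006, annotated as retained introns, had means of 7.49 and 11.7 CPM at E16. At P0 their means were 19.1 and 32.4 CPM.

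Tet3 climbed in smaller steps, none of which reached 2-fold. It stood at 151 and 144 CPM at E11, 146 and 144 CPM at E12, 203 and 207 CPM at E14, 210 and 206 CPM at E16, 209 and 192 CPM at P0, and 273 and 304 CPM at P2. It then stood at 238 and 280 CPM at P4, 346 and 343 CPM at P6, 339 and 323 CPM at P10, 372 and 394 CPM at P14, 297 and 318 CPM at P21, and 329 and 301 CPM at P28. The libraries of E11 and E12 lay below all others, and those of P14 were the highest. The log2 differences that passed the adjusted p alone were 0.50 for E14 vs E12, 0.52 for P2 vs P0, 0.41 for P6 vs P4 and -0.32 for P21 vs P14.

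Per base of transcript, the sum of the 3 Tet genes was 46.5 ± 7.80 at E11, 86.4 ± 3.97 at E16, 134 ± 3.15 at P6, 162 ± 3.72 at P14 and 135 ± 11.5 at P28 (SD, n = 2 each). Tet1 supplied 23.2% ± 0.51 of it at E11, 20.8% ± 0.97 at E16, 12.7% ± 1.45 at P6, 19.8% ± 0.24 at P14, 7.16% ± 0.12 at P21 and 8.07% ± 0.76 at P28. Tet2 supplied 45.2% ± 0.49 at P28, against 32.2% ± 2.97 at E11, and Tet3 46.7% ± 0.27 at P28, against 44.6% ± 3.48 at E11. The share of Tet1 was lowest at P21 and P28. The Tet2 part includes transcripts annotated as retained introns. Rises between ages on this scale, which has no TMM scaling, can exceed those in CPM. Tet3 stood at 62.9 per base at P28, against 20.6 at E11, and at 315 CPM, against 147 CPM.

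Of the tested Tet transcripts, Tet2-002 and Tet3-003 were called for usage between mature and embryonic libraries, and both hold under 10% of their gene at every age. Tet3-001, of 1668 codons, held 99.0% ± 0.33 of Tet3 counts in mature libraries and 95.2% ± 0.55 in embryonic ones. Tet3-003, of 1803 codons with a start further upstream, held 0.65% ± 0.37 in mature libraries and 4.49% ± 0.62 in embryonic ones and was called for usage (log2 change -2.94, adjusted p = 7.55e-12, diffSpliceDGE). Tet1-201 and Tet1-001 held 54.7% ± 6.92 and 41.8% ± 6.60 of Tet1 counts in mature libraries, against 52.4% ± 7.63 and 45.5% ± 7.56 in embryonic ones, and neither was called. For Tet2, Tet2-001 of 1912 codons held 67.4% ± 3.59 in mature libraries and 61.9% ± 3.15 in embryonic ones and was not called, but between these ends it was lower, with 43.7% ± 7.91 at P0 and 48.6% ± 4.79 at P6 (SD, n = 2 each). Tet2-006, annotated as a retained intron with no coding sequence, held 25.3% ± 1.80 at P0 and 10.4% ± 1.96 at P14. Tet2-002 held 1.81% ± 1.88 in mature libraries and 1.30% ± 2.46 in embryonic ones (log2 change of usage 3.17, adjusted p = 0.00713, diffSpliceDGE). The SD exceeded the mean share in both groups, and the mean shares differ far less than the usage change, so this call is uncertain.

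Mbd2 had the smallest span of the 8 genes, while 1 of its transcripts changed in share. Its level was 33.4 and 33.3 CPM at E11, 39.5 and 34.4 CPM at E12, 42.4 and 35.8 CPM at E14, 47.0 and 46.6 CPM at E16, 34.2 and 43.5 CPM at P0, and 39.7 and 34.3 CPM at P2. It was 36.5 and 34.1 CPM at P4, 31.3 and 32.2 CPM at P6, 31.1 and 38.3 CPM at P10, 35.9 and 38.8 CPM at P14, 48.8 and 47.5 CPM at P21, and 56.5 and 53.4 CPM at P28. The P28 libraries were the 2 highest, and most other ages overlapped. The log2 difference of P28 vs P6 was 0.79 (SE 0.13, adjusted p = 6.55e-05, edgeR's quasi-likelihood test), under the 2-fold threshold.

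Mbd2-002, a short transcript of 249 codons that ends within the gene, was nearly absent from the mature retina. It held 22.8% and 28.6% of Mbd2 counts at E11, 24.9% and 23.9% at E12, 29.6% and 34.8% at E14, 14.9% and 12.5% at E16, 12.24% and 6.66% at P0, and 9.98% and 6.05% at P2. It held 3.81% and 4.998% at P4, 4.11% and 4.2% at P6, 2.35% and 1.99% at P10, 0.55% and 0.71% at P14, 0.56% and 0.61% at P21, and 0.34% and 0.41% at P28. The mature libraries, with 6.204 to 8.30 estimated counts each, lay below all earlier ones.

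The share of Mbd2-002 was 0.53% ± 0.14 in the 6 mature libraries, against 24.002% ± 7.43 in the 8 embryonic ones (log2 change of usage -5.47, adjusted p = 1.98e-26, diffSpliceDGE). Mbd2-001, the full-length transcript of 414 codons, held 68.2% ± 3.26 and 51.8% ± 5.93 in those libraries and was not called (adjusted p = 0.199). Mbd2-002 shares 794 exonic bases with Mbd2-001 and has 496 that the long transcript lacks, so its counts rest only in part on such sequence. Its overlap with the other Mbd2 transcripts was not measured, so its share is uncertain too. Over all 8 genes, 54 of 66 annotated transcripts were tested and 14 were called for usage, read against 16.9% of the 56746 transcripts tested.

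Over the 3 windows of development, all calls among the 8 genes were downward, while by the adjusted p alone 3 were higher and 4 lower in E16 vs E11, 2 and 5 in P6 vs E16, and 2 and 4 in P28 vs P6. In E16 vs E11, 1 of 8 was called lower, Dnmt3b, read against 9.11% of genes lower and 22.7% called in either direction. In P6 vs E16, 3 of 8 were called lower, Dnmt1 (log2 change -1.31, SE 0.10), Dnmt3b (-1.99, SE 0.19) and Uhrf1 (-4.97, SE 0.23), read against 11.7% lower and 24.9% in either direction. In P28 vs P6, 1 of 8 was called lower, Uhrf1 (-4.34, SE 0.32), read against 10.5% lower and 24.7% in either direction. Neighbouring windows share the libraries of E16 or P6, and neighbouring steps those of the age between them. The median of all genes tested was 0.00 in E16 vs E11, 0.0062 in P6 vs E16 and 0.036 in P28 vs P6.

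**Figure D5:**
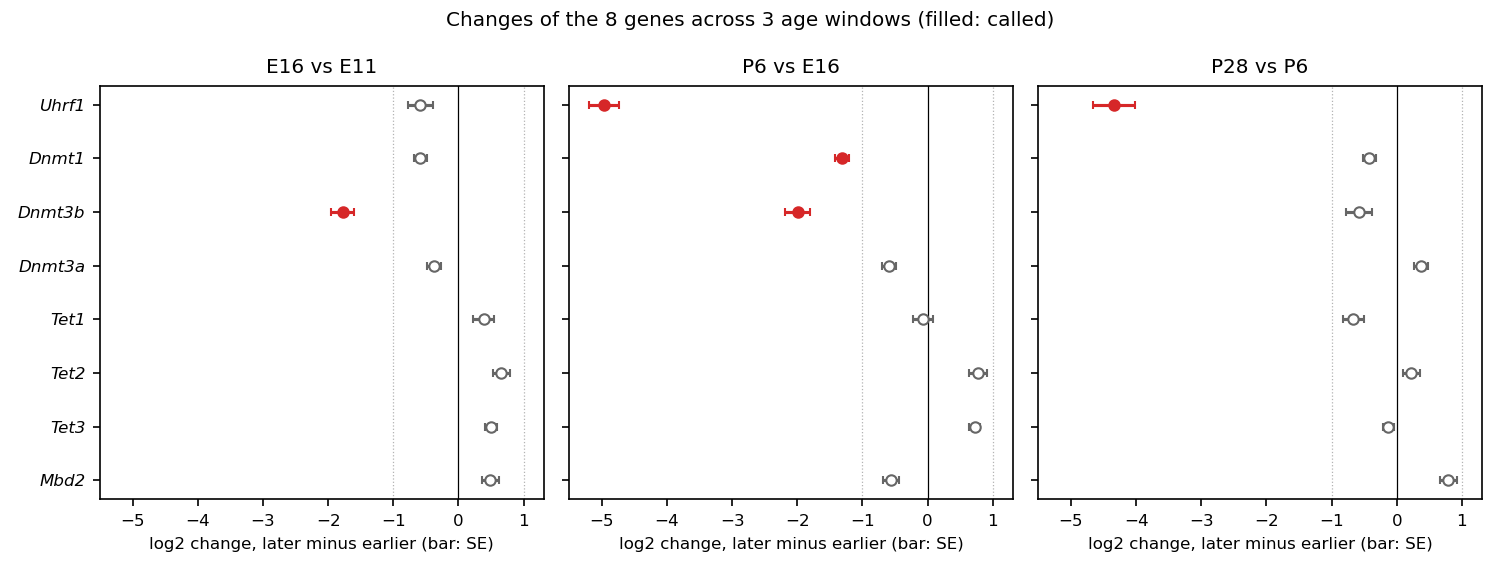
Log2 change (later minus earlier age) with SE bars for the 8 genes in E16 vs E11, P6 vs E16 and P28 vs P6. Filled red points passed an adjusted p under 0.05 and 2-fold, and dotted lines mark 2-fold. The filled points are Dnmt3b (-1.78), then Uhrf1 (-4.97), Dnmt1 (-1.31) and Dnmt3b (-1.99), then Uhrf1 (-4.34).

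Of 88 tests of a gene in a step between neighbouring ages, 7 were called and all 7 were lower at the later age, read against 6.76% of the tests over all genes and steps. They are Dnmt3b in E16 vs E14, Dnmt1 and Uhrf1 in P4 vs P2, Uhrf1 in P6 vs P4 and in P10 vs P6, and Dnmt3a and Tet1 in P21 vs P14. In P4 vs P2 the called genes were 2 of 8, with 7.28% of all genes lower in that step, and the share lower was 1.67% in E16 vs E14, 1.54% in P6 vs P4 and 3.28% in P10 vs P6. By the adjusted p alone, 30 of the 88 passed, 12 higher and 18 lower at the later age. In the other 6 steps the share of all genes called in either direction was 8% (E12 vs E11), 10.9% (E14 vs E12), 7.78% (P0 vs E16), 3.98% (P2 vs P0), 4.52% (P14 vs P10) and 0.888% (P28 vs P21).

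The order of the 8 genes per base of transcript turned over between E11 and P28. At E11 it was Uhrf1 (209 ± 26.9), Dnmt1 (107 ± 8.22), Dnmt3a (94.7 ± 7.21), Mbd2 (46.9 ± 2.74), Dnmt3b (43.1 ± 0.51), Tet3 (20.6 ± 1.86), Tet2 (15.1 ± 3.89) and Tet1 (10.8 ± 2.05). At P28 it was Dnmt3a (101 ± 4.18), Mbd2 (95.7 ± 4.44), Tet3 (62.9 ± 4.99), Tet2 (60.9 ± 4.53), Dnmt1 (29.8 ± 1.57), Tet1 (10.9 ± 1.95), Dnmt3b (2.89 ± 0.60) and Uhrf1 (0.34 ± 0.24). These levels sum coding and noncoding transcripts, and a short transcript weighs more per count, so the order is not one of coding RNA alone. For Mbd2 at P28, Mbd2-001, of 1953 bases, held 68.6% of counts. Mbd2-005, a retained intron of 494 bases, held 17.9%, and Mbd2-003, of 694 bases and annotated for nonsense-mediated decay, held 11.9%. Neighbours in the order did not overlap at E11. At P28 the libraries of Dnmt3a and Mbd2, and those of Tet3 and Tet2, overlapped. The ratio of Dnmt3a to Dnmt3b per base was 2.2 ± 0.19 at E11, 6.09 ± 0.15 at E16, 21.4 ± 7.15 at P6, 85.0 ± 0.23 at P14 and 35.96 ± 8.85 at P28 (SD, n = 2 each).

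Genes that work with the 8 were taken from 6 lists of 106 symbols, of which 101 were tested. In E16 vs E11, 6 were called higher and 16 lower, in P6 vs E16 7 higher and 47 lower, and in P28 vs P6 4 higher and 33 lower. The 22 of 101 called in E16 vs E11 compare with 22.7% of all genes, the 54 in P6 vs E16 with 24.9% and the 37 in P28 vs P6 with 24.7%, and these shares apply to each list below. Without E11 replicate 2 the count in E16 vs E11 was 14 in all, 6 higher and 8 lower, and with scaling by library size alone it was 17, 8 higher and 9 lower. Most of the lower calls were of the cell cycle list, with 9, 28 and 19 of 30 lower in the 3 windows and medians of -0.76, -3.31 and -1.44. Its named genes in P6 vs E16 were Cdc6 (-4.39) and Mcm3 (-4.21), which license and unwind replication origins, and in P28 vs P6 Mki67 (-9.94), a marker of dividing cells, and Cdk1 (-5.65), the mitotic kinase. In E16 vs E11 they were Ccne1 (-2.39), a cyclin of S-phase entry, and Rrm2 (-1.34), a subunit of ribonucleotide reductase.

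Among partners of maintenance methylation, 14 of 17 were tested and 1 was higher and 1 lower in E16 vs E11, 6 lower in P6 vs E16 and 5 lower in P28 vs P6. Cdca7, which recruits the remodeller Hells, had 90.5 CPM at E16 against 222 CPM at E11, 4.64 CPM at P6 against 90.5 CPM at E16, and 0.95 CPM at P28 against 4.64 CPM at P6. All 3 differences were called, with log2 changes of -1.30, -4.28 and -2.28. Its relative Cdca7l fell by 3.72 on the log2 scale in P6 vs E16. Hells itself had 9.65 CPM at P6 against 107 CPM at E16, with a log2 change of -3.47 (SE 0.37, quasi-likelihood adjusted p = 6.80e-07), and Pcna, the replication clamp, changed by -1.96 (SE 0.13). Both were named after their values were seen. Zfp57, a zinc finger protein that protects imprinted methylation, had 9.15 CPM at P28 against 66.2 CPM at P6 (-2.85). Kdm1b, a histone demethylase needed for imprints in oocytes, rose in E16 vs E11 (1.07).

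Of 10 readers of methylated DNA other than Mbd2, 2 were higher and 2 lower in P6 vs E16, and 1 was higher in P28 vs P6. Zbtb4, a zinc finger reader, had 66.2 CPM at P6 against 16.18 CPM at E16, and 231 CPM at P28 against 66.2 CPM at P6 (2.03 and 1.80). Zbtb38, of the same family, rose in P6 vs E16 (2.11, SE 0.58).

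Of 20 genes of demethylation and base repair, 3 were higher and 2 lower in E16 vs E11, 4 and 4 in P6 vs E16, and 3 and 7 in P28 vs P6. Gadd45a, a stress gene linked to demethylation, and Cxxc4, which binds Tet2, rose in E16 vs E11 (2.21 and 1.94). In P6 vs E16 Ung, the uracil glycosylase, fell by 4.02 and Apobec2, a member of the deaminase family, rose by 3.97, with 8.87 CPM at P6 against 0.56 CPM at E16. In P28 vs P6 the abasic endonuclease Apex1 fell by 1.90, and Smug1, another uracil glycosylase, rose by 1.76, all on the log2 scale. Tdg, the glycosylase that removes oxidised methylcytosine, had 89.5 CPM at P28 against 170 CPM at P6, a log2 difference of -0.92 that did not reach 2-fold, and it was chosen after its values were seen.

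Of 13 NuRD genes, 1 was higher in E16 vs E11, 2 lower in P6 vs E16 and 2 lower in P28 vs P6. Chd5, a remodeller of neurons, rose by 5.35 in E16 vs E11, Mta1 and Mta3 fell by 1.22 and 1.05 in P6 vs E16, and Cdk2ap1 and Hdac2 fell by 1.43 and 1.28 in P28 vs P6, all on the log2 scale. Of 14 one-carbon genes tested among 16, 4 were lower in E16 vs E11, 1 was higher and 5 lower in P6 vs E16, and in P28 vs P6, where none passed both thresholds by edgeR's test, the list median was 0.26. Ahcy, which clears the by-product of methylation, had 76.8 CPM at E16 against 245 CPM at E11 (-1.67), and Cbs fell by 2.51 from a low level. Shmt1 and Mthfd2, enzymes of the folate cycle, fell by 2.25 and 2.17 in P6 vs E16.

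Across the 24 libraries on the log2 CPM scale, Dnmt1 had a Pearson r of 0.97 with Dnmt3b and 0.95 with Uhrf1, and Dnmt3b had -0.93 with Tet3. These are descriptions over libraries that share ages. The genes most like each member, among 11856 with a highest stage mean of at least 10 CPM, were Chaf1a (0.99), Incenp (0.99) and Llgl1 (0.99) for Dnmt1, Depdc1b, Cdk2 and Anln (0.99 each) for Uhrf1, and Umps (0.99), Msh6 (0.99) and Grb10 (0.98) for Dnmt3b. For Tet2 they were Atg13, Slc38a9 and D5Ertd579e (0.95 each), and for Tet3 Fam189a1 (0.97), Kif21b (0.96) and Asic2 (0.96). For Dnmt3a they were Col4a2 (0.91), Nhsl2 (0.89) and Fbn1 (0.88), for Tet1 Dennd5b (0.88), Rdh10 (0.81) and Garnl3 (0.80), and for Mbd2 Chst3 (0.81), Kmt2a (0.81) and Rdh11 (0.76). Chaf1a is a chromatin assembly factor of replication and Msh6 a mismatch repair protein.

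In the authors' deposited table of 12718 genes in numbered clusters, Dnmt1 and Dnmt3b are in the same cluster of 772 genes, cluster 11. The authors' deposited table puts Uhrf1 in cluster 9 (544 genes), Dnmt3a in cluster 3 (371 genes) and Tet1 in cluster 35 (88 genes). It has Tet2 in cluster 17 (418 genes) and Tet3 in cluster 16 (570 genes).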

How the data were processed

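Estimated counts per Ensembl transcript and per gene were deposited by the authors. The tools named are edgeR 3.13.9 and kallisto 0.42.4 and the build is GRCm38.p5, per the submitters' processing notes, which assign them no role. The summary from transcript to gene level is not described there, and for Dnmt3a the gene values are not plain sums. The authors also deposited log2 changes, adjusted p-values and cluster numbers, per the file headers, of which only the clusters are given. The 8 genes and the related lists were chosen with earlier results of these data known.

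Counts were rounded to whole numbers and tested with edgeR 4.0.16 in R 4.3.3. Genes were kept by filterByExpr at a minimum count of 10, libraries were scaled by TMM, and a quasi-likelihood model with 1 coefficient per age used all 24 libraries (24567532 to 35898879 counts each) and left 12 residual df, with p-values adjusted over all genes tested. Calls needed an adjusted p under 0.05 and 2-fold. SE is the absolute log2 change over the square root of F. Transcript usage was tested with diffSpliceDGE on the whole transcript table, as the mean of P14, P21 and P28 against that of E11, E12, E14 and E16, at an adjusted p under 0.05. Per-length levels divide each transcript's count by its deposited length and are scaled to the same total in every library, without TMM. Alternatives were DESeq2 1.42.0, other scalings and filters, summed transcript counts, the replicate block and leaving out each library. The scripts were tested on simulated data. Intervals and floors cover counting error only.

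All 8 genes were named, with up to 2 called genes of largest change per list and window, the 3 genes most like each member, and, of the transcripts with at least 10% of their gene, those the results turn on. Dnmt1-203, Dnmt3a-013, Dnmt3a-014, Dnmt3a-015, Dnmt3a-016, Tet2-002 and Tet3-003 hold less and, like the choice among the others, were picked after their values were seen. A gene that this rule names is not reported here. Transcript structures come from the GENCODE annotation of GRCm38 and promoter windows from RefSeq (GRCm38.p6), which covers 7 of the genes as used here.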

Additional observations from a re-analysis of the deposited data

How the results depend on the processing

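With the adjusted p alone in place of the 2-fold rule, the counts of the 8 genes called became 7 in E16 vs E11, 7 in P6 vs E16 and 6 in P28 vs P6, those of related genes 66, 84 and 69, and those of gene and step pairs 30. Of 1752 values of single genes under alternatives, 1707 kept their direction and their side of the threshold. The exceptions other than the adjusted p alone were these. Dnmt3a reversed with summed transcript counts to 0.049 in E16 vs E11 (adjusted p = 0.711, edgeR) and 0.39 in P6 vs E16 (adjusted p = 0.00234, edgeR), and its gene values differ from those sums by construction. Tet1 in P6 vs E16 was 0.048 without P6 replicate 1 and -0.18 without P6 replicate 2, against -0.07 with both, and its lowest value was -0.26 with summed transcript counts. Dnmt3b in P6 vs P4 was -1.16 and called without P6 replicate 2, and for Tet2 in P0 vs E16 and Dnmt3a in P21 vs P14 the values stand beside the results. Leaving out each library in turn, the counts stayed at 7 over all ages and at 1, 3 and 1 in the windows, and ran from 6 to 8 for steps and from 11 to 14 for usage. Counts of related genes ran from 14 to 29, 50 to 55 and 34 to 41. The lowest, 14, was without E11 replicate 2, and the cause was not tested.

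Replicate numbers did not pair the libraries. Deviations of same-numbered libraries had correlations of -0.057 to 0.13 over 66 pairs of ages. With the replicate block the counts were 7, 1, 3 and 1 for the 8 genes, 22, 54 and 38 for related genes, 7 for steps and 14 for usage, and no call count moved by over 1.5 times. Scaling by library size alone moved the median of all genes in E16 vs E11 to 0.14 and the share of higher calls to 68.6%, left the calls of the 8 genes at 1 and made those of related genes 8 higher and 9 lower. Depth limits Uhrf1 after P10 and transcript shares of Dnmt3b and Uhrf1 in the mature retina, which rest on few counts.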
